A study of Mus musculus with 4 samples.

Results

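The cells described here were taken as lung alveolar fibroblasts by a rule, and lay toward the Tnc, C7 and Robo2 side of a split between 2 groups of genes. They were chosen by measured values. Barcodes needed 1000 or more UMIs (unique molecular identifiers, counts of captured RNA molecules) from 500 or more genes, with no more than 10% of them mitochondrial. A member then needed UMIs of at least 3 of the 5 genes Tcf21, Npnt, Ces1d, Inmt and Wnt2, no UMI of Ptprc, Cdh5, Pi16 or Hhip, and UMIs of fewer than 3 of Ppp1r3a, Itgbl1, Gabra3, Mmp3 and Olfr1033. Its summed UMIs of Tnc, C7, Robo2, Cp, Mamdc2 and Chrna7 (the Tnc group) had to exceed those of Fat3, Slc7a10, Scube2, Bmper, Fgfr4 and Adra1a (the Slc7a10 group). This held for 8062 of the 68675 barcodes kept (11.7%). Of the 9345 alveolar fibroblasts that met the rule before the split, 887 lay on the other side and 396 had equal sums.

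The study gave BPTES, a small-molecule inhibitor of glutamine use, or DMSO, its vehicle, to male C57BL/6 mice for 1 month, starting at 19 months of age. Each treatment had 2 droplet single-cell RNA libraries of whole lung, digested for 1 hour with Liberase, and every library mixed 20000 CD45-negative with 9000 CD45-positive sorted cells. The labels do not say whether the libraries of a group came from separate animals, so the p-values below measure the spread between libraries. BPTES replicates 1 and 2 held 1962 and 2021 members, and DMSO replicates 1 and 2 held 1917 and 2162. Values given in a row below follow that order.

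Alveolar fibroblasts lie in the interstitium of the alveolar wall, beneath the epithelium, keep its matrix and supply growth signals to it, and the transcription factor Tcf21 and the integrin ligand nephronectin (Npnt) mark them. The genes that set the split have varied roles. Tnc encodes the matrix glycoprotein tenascin C, C7 a terminal complement component, Robo2 a receptor for the guidance cue Slit, and Cp the copper-binding ferroxidase ceruloplasmin. On the other side, Slc7a10 encodes an amino acid transporter, Scube2 a secreted protein of Hedgehog ligand release, and Bmper a binder of bone morphogenetic proteins.

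The members formed a range rather than a separate state. Of the alveolar fibroblast markers that the rule did not use (Pdgfra, Itga8, Limch1 and Fgf10), none was at 0, and their summed level was 7178, 6741, 8611 and 8260 CPM (a gene's summed UMIs scaled to a common total). The genes the rule required were detected often, which the selection fixes in part. Npnt had a UMI in 99.4% of members, Inmt in 99.5%, Ces1d in 90.6%, Tcf21 in 88.0% and Wnt2, a ligand made by these cells, in 66.7%. In the Tnc group, Cp was seen in 94.0% of members, C7 in 93.6%, Mamdc2 in 90.1%, Robo2 in 85.8%, Tnc in 40.6% and the acetylcholine receptor gene Chrna7 in 21.8%. Only 38.7% of members had UMIs of Tnc, C7 and Robo2 together. Most UMIs of the group's sum came from Cp (38.1%) and C7 (32.6%), whereas Tnc gave 4.94%. The members also expressed the opposing genes: 91.7% had a UMI of the Slc7a10 group, Scube2 in 81.4%, Adra1a in 80.8% and Slc7a10 itself in 70.2%. The medians over members were 113 UMIs for the Tnc group and 40 for the Slc7a10 group. In a narrowed gate described below, the split fell on the flank of a single broad peak. Over all members, 711 (8.82%) lay within 3 UMIs of it. The 312 members just inside, 1 UMI above equality, had a median of 4967 UMIs in total. The 183 cells 1 UMI below it had 3342. A UMI of Pdgfra was seen in 37.8% of the 312 and 49.2% of the 183. The 312 had median sums of 1 for the Tnc group and 0 for the Slc7a10 group. In the 396 cells with equal sums both medians were 0, and 32.8% had a UMI of Pdgfra. Members with 10 or fewer UMIs of the Tnc group made up 15.5%, 17.5%, 6.94% and 11.7% of each library's members.

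**Figure D1:**
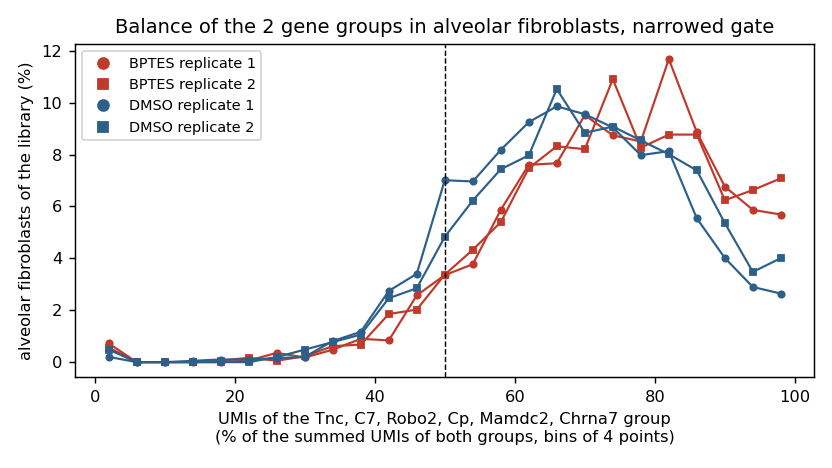
Share of each library's alveolar fibroblasts (y axis, %) against the Tnc group's percentage of the summed UMIs of both groups (x axis, bins of 4 points), in cells of the narrowed gate. Each line is 1 library and the dashed line is the split at 50%; each library has 1 broad peak to the right of the split, and the 2 BPTES lines sit further right, with medians of 74.8% and 74.6% against 67.9% and 70.2% for DMSO.

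RNA of the alveolar epithelium was found in the members, at higher levels in the BPTES libraries. A UMI of Sftpc, the surfactant protein C gene of alveolar type 2 cells, was seen in 97.9%, 92.1%, 63.4% and 87.2% of members and in 97.0%, 94.2%, 62.7% and 88.0% of cells with a UMI of Ptprc. Detection in members was thus close to that in cells that should lack the gene, and the part of free RNA in it was not tested. Sftpc averaged 62614 CPM in the members outside a narrowed gate and 153 CPM inside it. It averaged 117970 CPM in cells with a UMI of Epcam and 162 CPM in cells with a UMI of Ptprc. For the members outside the narrowed gate, alveolar fibroblast is thus the rule's name only. Whether they were epithelial cells or doublets was not tested. The narrowed gate was added after the data had been seen. It kept members with at least 1 UMI of the fibroblast receptor gene Pdgfra and none of Epcam, Ager, Trpc6, Myh11 or Upk3b, which mark epithelium, alveolar type 1 cells, pericytes, smooth muscle and mesothelium. It held 1534, 1636, 1715 and 1840 members, 6725 in all. The members outside it made up 21.8% and 19.1% under BPTES and 10.5% and 14.9% under DMSO. Over all members, the summed level of 10 alveolar type 2 markers was 26447 and 27042 CPM under BPTES and 6585 and 12370 CPM under DMSO, with all 10 higher under BPTES and none at 0. In the narrowed cells the sum was 338, 312, 88.8 and 190 CPM, with 8 of 10 higher. The 10 myeloid markers, Lyz2 among them, summed to 4374 and 4579 against 1115 and 2094 CPM in all members, and to 145, 136, 122 and 147 CPM in the narrowed ones. In all members 5 of the 10 were higher without overlap and 2 lower. Lyz2 alone averaged 2591 CPM there. It averaged 21825 CPM in cells with a UMI of Epcam and 5332 CPM in cells with a UMI of Ptprc. In all members the sums of type 1 (264 and 232 against 92.6 and 154 CPM) and airway cells (1244 and 1986 against 810 and 346 CPM) were also higher. So were those of peribronchial fibroblasts (226 and 167 against 87.7 and 127 CPM) and smooth muscle (482 and 456 against 236 and 351 CPM). Of the single markers, 3 of 6 of type 1 and 2 of 6 of airway cells were higher without overlap. So were 3 of 7 of peribronchial fibroblasts and 5 of 7 of smooth muscle, and 0 in these lists were lower. Mesothelial (184 and 181 against 265 and 231 CPM) and lymphoid sums (47.3 and 38.7 against 51.4 and 71.1 CPM) were lower there, and the rest overlapped. The summed markers of type 1, airway, endothelial, adventitial and mesothelial cells overlapped between treatments in the narrowed cells. Those of lymphoid cells (50.4 and 37.7 against 51.2 and 72.3 CPM) and pericytes (733 and 651 against 847 and 769 CPM) were lower under BPTES. Those of peribronchial fibroblasts (139 and 119 against 70.1 and 83.7 CPM) and smooth muscle (382 and 423 against 218 and 311 CPM) stayed higher. In each of these 2 lists, 2 of 7 markers were higher without overlap and 0 lower. In the type 1, smooth muscle, pericyte and mesothelial lists 1 marker each was at 0 in the narrowed cells, by the gate. The main treatment results are therefore given for all members and for the narrowed ones.

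The members' share of alveolar fibroblasts differed little between treatments. It was 87.2% (95% exact binomial interval 85.7% to 88.5%) and 87.2% (85.7% to 88.5%) under BPTES, and 84.8% (83.3% to 86.3%) and 86.0% (84.5% to 87.3%) under DMSO. The means were 87.2% ± 0.00778 (SD, n = 2) and 85.4% ± 0.807 (SD, n = 2), a difference of 1.76 percentage points (two-sided exact permutation p = 0.33, the smallest that 2 libraries against 2 can give). Intervals cover counting error only. The other side made up 7.46% and 7.98% of alveolar fibroblasts under BPTES and 11.9% and 10.6% under DMSO, without overlap. Cells with equal sums made up 5.38% and 4.87% under BPTES and 3.32% and 3.46% under DMSO. With a margin of at least 3 UMIs between the sums, cells within it stayed in the denominator. The other side then made up 4.35% and 5.22% under BPTES against 9.20% and 7.63% under DMSO. The difference in the members' share was -0.783 percentage points (exact permutation p = 0.667). In cells thinned to 3000 UMIs it was 4.63, from 90.6% and 89.9% against 84.6% and 86.7%, and in the narrowed gate 3.92. Both the size and the sign of the share difference thus moved with these choices. Of the cells without a Ptprc UMI, the gene of CD45, members made up 18.5%, 19.5%, 19.6% and 17.1%. The treatments overlapped in this share (exact permutation p = 1.0).

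The balance between the 2 gene groups was also further toward the Tnc group in the BPTES libraries. In all alveolar fibroblasts of the narrowed gate, which were not cut on these genes, the median percentage from the Tnc group was 74.8% and 74.6% under BPTES and 67.9% and 70.2% under DMSO. The means were 74.7% ± 0.153 (SD, n = 2) and 69.0% ± 1.63 (SD, n = 2). The libraries did not overlap, and the exact permutation p was 0.33, the smallest possible. This summary was added after the data had been seen.

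The single genes of the split showed where that balance lay, although none of the 12 passed the test in all alveolar fibroblasts, where 0 of 17084 genes were called (0% of genes tested, 28.1% at an unadjusted p under 0.05; DESeq2 called 1959, and edgeR 1715 without DMSO replicate 2). Bmper had 360 and 352 CPM under BPTES and 601 and 601 CPM under DMSO, a log2 fold change of -0.75 ± 0.067 (approximate SE; adjusted p = 0.0563). Adra1a, an adrenergic receptor gene, had 367 and 357 against 755 and 520 CPM (log2 fold change -0.82, adjusted p = 0.0732). Both genes were lower in each BPTES library than in each DMSO library. Scube2 had 340 and 348 against 579 and 476 CPM, and Slc7a10 183 and 234 against 294 and 290 CPM, again without overlap. On the Tnc side, Mamdc2 was also lower (551 and 481 against 816 and 704 CPM), while Chrna7 was higher (47.7 and 64.6 against 28.8 and 36.5 CPM, adjusted p = 0.0759). Tnc had 297, 253, 193 and 409 CPM, with both DMSO libraries at the extremes. C7 (1764, 1764, 2480 and 1887 CPM) and Robo2 (703, 748, 862 and 895 CPM) were lower in both BPTES libraries. So was Cp (2007, 2315, 2353 and 2360 CPM), by less (log2 fold change -0.13). In the narrowed gate the log2 fold changes of Tnc, C7, Robo2 and Cp were 0.02, -0.09, -0.08 and 0.07, that of Mamdc2 was -0.38 and that of Chrna7 0.96 (edgeR adjusted p = 0.0915). On the Slc7a10 side they were -0.56 for Adra1a, -0.54 for Bmper, -0.40 for Scube2, -0.24 for Slc7a10, -0.19 for Fat3 and -0.05 for Fgfr4. Fgfr4 overlapped between treatments in all alveolar fibroblasts, at 105, 126, 166 and 110 CPM. In the narrowed gate Chrna7 thus had the largest log2 fold change of the 12, and lower values were found on both sides.

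Over all members, no gene passed the test between treatments. Summed counts of 16750 genes were compared with edgeR's quasi-likelihood test, and 0 (0%) had a Benjamini-Hochberg adjusted p under 0.05. At an unadjusted p under 0.05 there were 4177 (24.9%), the smallest adjusted p was 0.0614, and DESeq2 called 1417. With 1 library left out, 1 to 1487 genes were called, 96 without DMSO replicate 1 and the 1487 without DMSO replicate 2. The 6 genes with the smallest p among those higher in BPTES were Lpl, Il33, Entpd1, Bex4, Cox6a2 and Macc1. All but Lpl were genes of the members outside the narrowed gate. Those cells held 93.6% of the members' UMIs of Il33, an alarmin cytokine made by type 2 cells, 92.8% of Entpd1, 98.8% of Bex4, 98.1% of Cox6a2 and 96.9% of Macc1. Il33 had 62.1 and 68.7 against 15.1 and 20.4 CPM in all members, and 3.09, 4.91, 3.11 and 2.34 CPM in the narrowed ones, where the treatments overlapped. Bex4 had 30.3 and 33.6 against 11.3 and 13.4 CPM in all members, and at most 0.527 CPM in a library of the narrowed ones. Of the genes that were lower, Pparg, Gm28055, a, Cx3cr1, Prr5l and Pgm5 had the smallest p.

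In the narrowed members 15 of 15525 genes were called (0.0966%), 3 higher and 12 lower under BPTES. Pparg, the nuclear receptor of lipid storage that defines lipid-laden interstitial fibroblasts, fell from 97.5 and 100.1 CPM under DMSO to 51.6 and 47.0 CPM under BPTES. Its log2 fold change was -1.003 ± 0.080 (approximate SE, edgeR adjusted p = 0.0258). Lpl, the lipoprotein lipase that releases fatty acids from circulating lipoproteins, rose from 26.3 and 31.6 to 54.9 and 60.2 CPM (log2 0.99 ± 0.11, edgeR adjusted p = 0.0424). The 2 lipid genes thus moved in opposite directions. Lpl is also expressed in epithelium: cells with a UMI of Epcam had 57.4, 58.9, 69.2 and 58.9 CPM, and 62.6% to 69.2% of them had a UMI of it, at median depths of 37370 to 43136 UMIs, against 16.6% to 31.4% of members. The type 2 marker sum was higher under BPTES in the narrowed members too, and its part in the Lpl call was not tested. Brinp1 rose from 21.5 and 20.2 to 40.6 and 37.7 CPM (log2 0.91), and Pcdh7, a protocadherin of cell adhesion, from 10.3 and 12.1 to 21.3 and 22.6 CPM (log2 0.97).

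Among the genes that fell, Prr5l, whose product binds the kinase complex mTORC2, went from 137 and 121 to 62.5 and 52.6 CPM (log2 -1.17). Gipc2 went from 39.3 and 37.7 to 17.3 and 19.1 CPM (log2 -1.08), and Trim69, a ubiquitin ligase gene, from 20.2 and 18.4 to 8.99 and 9.85 CPM (log2 -1.03). Nfe2l3, of the NRF transcription factor family, went from 17.8 and 17.6 to 9.83 and 9.40 CPM. Ampd1, an AMP deaminase of the purine nucleotide cycle, went from 12.01 and 11.6 to 5.13 and 5.56 CPM. The chemokine receptor gene Cx3cr1 went from 54.1 and 54.9 to 27.3 and 32.4 CPM, and a, the agouti gene, from 28.7 and 32.5 to 16.6 and 16.1 CPM. Stpg4 went from 11.6 and 13.5 to 5.58 and 4.74 CPM. The values of a, Cx3cr1, Ampd1 and Pcdh7 are uncertain, since other genes are annotated over the same stretch and strand (Raly for a, Gorasp1 for Cx3cr1).

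Long noncoding RNAs made up 3 of the 12. Gm28055 (mm10 chr1:51696324-51746943, minus strand) fell from 84.0 and 76.7 to 41.0 and 37.9 CPM, and 4930403P22Rik from 30.8 and 26.2 to 14.3 and 14.9 CPM. Gm34250 (chr14:45442754-45447073, minus strand) had 8.55 and 8.21 CPM under DMSO and 1.76 and 1.17 CPM under BPTES, a log2 fold change of -2.52 ± 0.22, the largest of the 15. Pparg lies at chr6:115360951-115490399 and Lpl at chr8:68880491-68907448, both on the plus strand. The calls rested on few libraries: without DMSO replicate 1 none of the 15 was called, without DMSO replicate 2 8 of them were, and with no filter on low counts none was. In all members, the same genes had log2 fold changes from -2.51 to 0.96 with adjusted p between 0.0614 and 0.268 (edgeR). Pcdh7 (20.8, 20.4, 19.0 and 17.2 CPM) was nearly level there, and Gipc2 had 23.9 and 32.8 against 43.6 and 41.0 CPM.

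**Figure D2:**
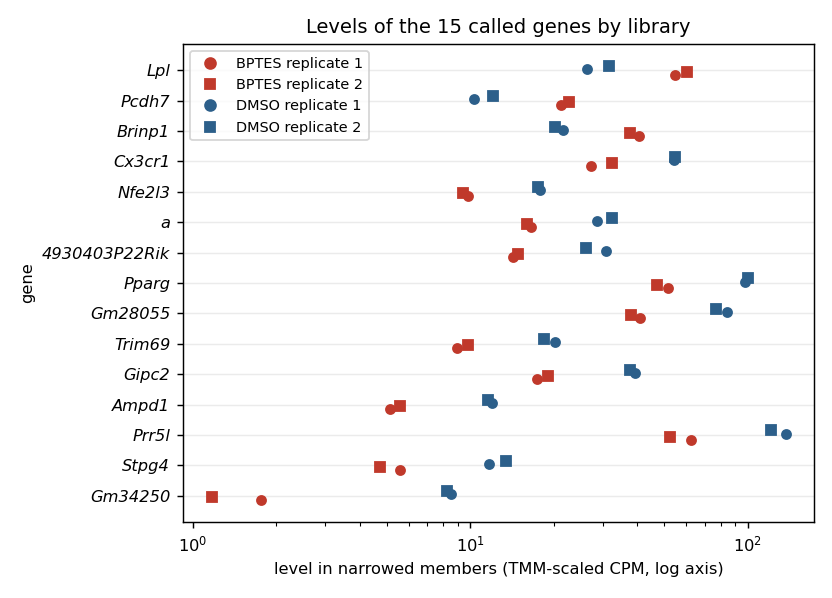
Level in narrowed members (x axis, TMM-scaled CPM, log axis) of the 15 genes called there (y axis), 1 point per library, ordered by fold change. The 2 BPTES libraries lie on 1 side of the 2 DMSO libraries for each gene, by about the same distance for most genes and furthest for Gm34250, at 1.17 and 1.76 against 8.21 and 8.55 CPM.

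The same 4 libraries gave values for these genes in other cells, which were not tested. In endothelial cells, taken as cells with a UMI of Cdh5, Trim69 had 42.4 and 43.3 CPM under BPTES and 86.4 and 77.6 CPM under DMSO, several times its level in the members. Pparg in those cells had 10.4 and 12.5 against 15.8 and 15.5 CPM. In cells with a UMI of Hhip, a gene of peribronchial fibroblasts and myofibroblasts, Prr5l had 35.8 and 22.4 against 66.1 and 48.5 CPM and Pparg 27.5 and 20.3 against 43.3 and 37.2 CPM. Lpl was lower in endothelial cells (85.9 and 97.6 against 115 and 106 CPM) and in cells with a UMI of Pi16 (95.4 and 127 against 267 and 158 CPM). It was higher in cells with a UMI of Ptprc (110 and 122 against 42.4 and 53.1 CPM) and of Hhip (105 and 121 against 87.5 and 73.0 CPM). Pparg was not lower in cells with a UMI of Ptprc, with 161 and 149 against 99.4 and 148 CPM. Each gene called lower was also lower without overlap in cells with a UMI of Hhip. That group left out only cells with a UMI of Ptprc, Cdh5 or Epcam. Alveolar fibroblasts with a UMI of Hhip could thus be in it. It averaged 788 CPM of Pdgfra and 1069 CPM of Itga8, against 1365 and 2231 CPM in narrowed members. The part of alveolar fibroblasts in its values was not tested. Prr5l, Trim69, a, Nfe2l3 and Gm34250 were lower without overlap in every other group read, and Brinp1 was higher in each. The groups read were cells with a UMI of Ptprc, Cdh5, Epcam, Pi16 or Hhip, and the Gabra3, Itgbl1 and Mmp3 fibroblasts. Some of these values were near 0. In cells with a UMI of Epcam, Gm34250 had 0.055 and 0 against 0.652 and 0.375 CPM. Brinp1 had 1.87 and 6.03 against 1.79 and 0.375 CPM in those cells. The remaining genes called lower overlapped or ran the other way in some group. For some called genes, differences in the same direction were thus also seen outside the members. The share of all genes with such a layout was not counted in these groups. In narrowed members it was 26.2% above and 27.4% below. Lpl, Pcdh7 and Brinp1 averaged 43.0, 16.5 and 29.9 CPM in narrowed members. In the Gabra3, Itgbl1 and Mmp3 fibroblasts they averaged 298, 281 and 119 CPM. Of the members' UMIs of Pcdh7, 32.7% lay outside the narrowed gate. The part of such fibroblasts in the results of these genes was not tested.

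Acute phase and matrix inhibitor genes were among those fixed for reading in each fit. Lcn2, the iron-chelating lipocalin that type 2 cells also make, had 276 and 280 against 26.1 and 72.0 CPM in all members. In the narrowed ones it had 20.7 and 82.8 against 6.44 and 13.6 CPM. Its level was thus lower there, while its log2 fold change was 2.50 ± 0.44 in all members and 2.36 ± 0.62 in the narrowed ones (edgeR adjusted p = 0.0775 and 0.134). Saa3, an acute phase apolipoprotein, had 77.1 and 132 against 16.5 and 19.5 CPM in all members and 47.6 and 156 against 14.1 and 22.0 CPM in the narrowed ones (log2 2.50 ± 0.51, edgeR adjusted p = 0.109). Timp1, an inhibitor of matrix metalloproteinases, had 54.4 and 79.9 against 22.1 and 24.5 CPM, and 45.6 and 95.04 against 21.2 and 27.5 CPM when narrowed (log2 1.53 ± 0.31, edgeR adjusted p = 0.109). Lcn2, Saa3 and Timp1 thus kept their difference in the narrowed cells, with BPTES replicate 2 well above replicate 1, and none passed the test. Haptoglobin, Hp, showed the same layout at 82.4 and 186 against 43.0 and 39.1 CPM. A UMI of Saa3 was seen in 6.32%, 8.91%, 7.04% and 5.27% of all members, against 2.92%, 4.81%, 5.25% and 3.19% of cells with a UMI of Ptprc, whose median depth was 14297 to 16257 UMIs against 18522 to 19748 in members. The share of members with Saa3 thus overlapped between treatments.

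**Figure D3:**
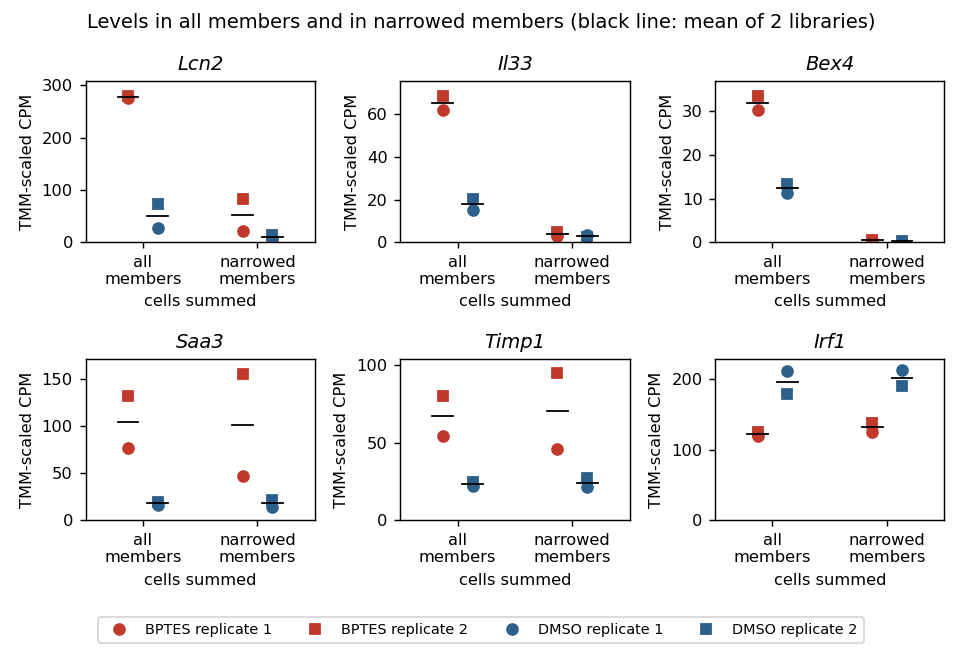
Level (y axis, TMM-scaled CPM) of 6 genes in all members and in narrowed members (x axis), 1 point per library and a line at the mean of 2 libraries. In narrowed members Il33 and Bex4 are near 0 and Lcn2 is at a lower level, with its BPTES libraries still above DMSO (20.7 and 82.8 against 6.44 and 13.6 CPM); Saa3, Timp1 and Irf1 are at levels like those in all members.

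The gene lists were read by how many of their genes had both BPTES libraries on 1 side of both DMSO libraries in the narrowed members. Over all 15525 genes this was so for 26.2% above and 27.4% below, and the median log2 fold change was -0.01. Rule genes were left out of the lists. Of 43 collagen and interstitial matrix genes, 20 lay above (46.5%) and 1 below, with a median of 0.23. The fibrillar collagen genes Col1a1 (601 and 550 against 432 and 509 CPM), Col1a2 (909 and 906 against 648 and 736 CPM) and Col3a1 (969 and 876 against 513 and 698 CPM) were among the 20. So were the glycoprotein genes Fn1 and Sparc, the microfibril gene Mfap5 (197 and 180 against 118 and 142 CPM) and Col15a1 (10.4 and 12.2 against 5.75 and 3.68 CPM). Of 31 acute phase and inflammatory genes 15 lay above (48.4%) and 1 below, Socs3, with a median of 0.36. Of 19 complement and coagulation genes 10 lay above (52.6%) and 0 below, with a median of 0.19. Among these, C1ra, an initiating protease, had 176 and 170 against 131 and 136 CPM, and C4b 215 and 236 against 162 and 168 CPM. No gene of the 3 lists was called, and their smallest adjusted p was 0.0704 (edgeR). In all members, where 29.2% of genes lay above and 30.5% below, the lean was smaller. Of the collagen genes 18 lay above (41.9%) and 9 below (20.9%), with a median of 0.11. Of 33 acute phase genes 15 lay above and 6 below (median 0.20), and of 20 complement genes 10 above and 2 below (median 0.07).

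The opposite lean was seen in guidance and adhesion genes, with 14 of 35 below (40.0%), 4 above and a median of -0.12. Unc5c, a netrin receptor gene, had 642 and 642 against 839 and 840 CPM, and Plxna2, a semaphorin receptor gene, 85.1 and 79.1 against 118 and 110 CPM. Of 48 interferon response genes 16 lay below (33.3%) and 10 above (20.8%), near the shares over all genes, with a median of -0.09. In all members 24 of the 48 lay below (50% against 30.5% of all genes) and 6 above (12.5%), with a median of -0.15, and of 37 guidance genes 18 below (48.6%) and 3 above. The transcription factor gene Irf1 had 125 and 138 against 212 and 190 CPM (log2 -0.61 ± 0.089, edgeR adjusted p = 0.0868), the GTPase gene Iigp1 153 and 174 against 234 and 228 CPM, and the chemokine gene Cxcl10 28.5 and 22.3 against 45.3 and 39.8 CPM. The proteasome genes Psmb8 and Psmb10 lay on the upper side. Of 30 immediate early and heat shock genes 10 lay below (33.3%) and 6 above (20%), also near the shares in narrowed members, and 12 below (40%) and 5 above (16.7%) in all members. Egr1 (2101 and 1784 against 2507 and 2303 CPM) and Btg2 were among the 10 and the chaperone genes Hspa8 (491 and 641 against 351 and 428 CPM) and Hsph1 among the 6, while Fos, Fosb and Jun overlapped. The TGF-beta and contractile list had 11 of 28 genes above (39.3%) and 3 below (10.7%) in narrowed members, with a median of 0.03. In all members 12 of 30 lay above (40%) and 6 below (20%). In that list, Acta2, smooth muscle actin, had 69.8 and 57.2 against 16.6 and 26.1 CPM in narrowed members (log2 1.57 ± 0.20, edgeR adjusted p = 0.0668). The smooth muscle marker sums given above are not separate from this result. In narrowed members much of them came from Acta2 itself and Tagln (241 and 300 against 131 and 200 CPM). There, 2 of the 7 markers were higher without overlap. The smooth muscle genes Cnn1 and Actg2 were near 0 and overlapped. The part of smooth muscle cells in the Acta2 result was not tested. The collagen, acute phase, complement, guidance and interferon medians kept their sign under each scaling tried.

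**Figure D4:**
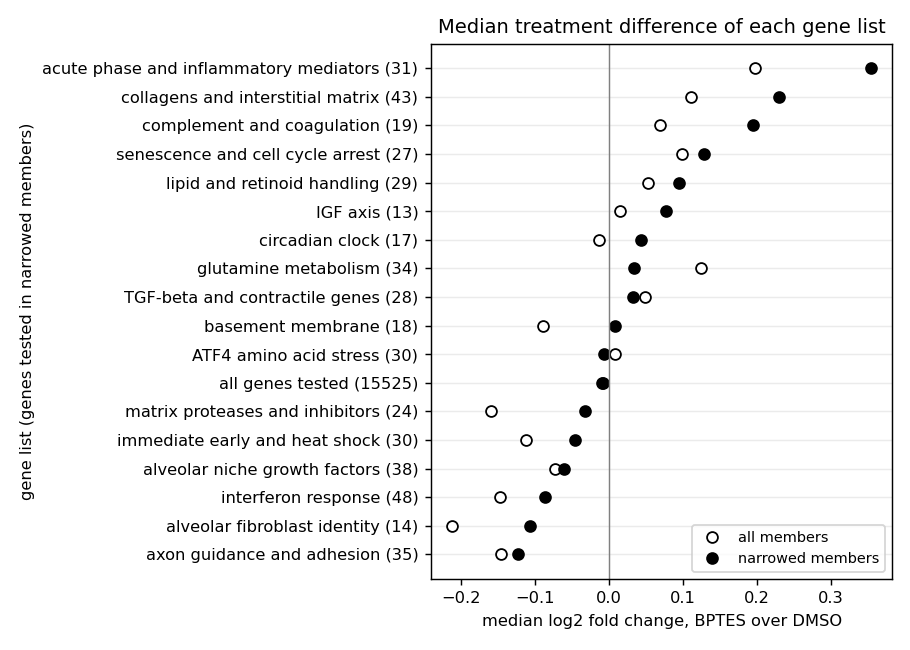
Median log2 fold change of BPTES over DMSO (x axis) for each gene list and for all genes tested (y axis, with the genes tested in narrowed members). Filled points are narrowed members and open points all members; the acute phase list has the highest median in narrowed members, at 0.36, and the guidance and adhesion list the lowest, at -0.12.

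Genes of glutamine use, the pathway of the inhibitor, did not separate as a list in the narrowed members: 10 of 34 lay above (29.4%) and 5 below (14.7%), near the share over all genes for the upper side, and none was called. Glul, which makes glutamine, had 99.8, 132, 94.2 and 107 CPM (log2 0.20 ± 0.14). The treatments overlapped. The glutamate transporter gene Slc1a3 had 276 and 259 against 372 and 334 CPM, and the amidotransferase gene Gfpt2, the first step of hexosamine synthesis, 57.1 and 65.9 against 50.3 and 46.7 CPM. In all members 18 of 34 such genes lay above (52.9%, against 29.2% of all genes tested there) and 6 below (17.6%, against 30.5%). Of the genes above, Gclc had 164 and 216 against 67.4 and 104 CPM in all members. In the narrowed ones it overlapped, at 49.0, 64.1, 44.7 and 53.3 CPM. Gpt also overlapped there, while Gclm and Oat stayed higher. The part of the members outside the narrowed gate in the larger share was not tested. The senescence list had 9 of 27 genes above (33.3%) and 4 below (14.8%) in narrowed members, against 26.2% and 27.4% of all genes. Of its genes, Cdkn2a had 10 UMIs in all narrowed members together, too few to compare. Cdkn1a, the p21 gene, had 92.6 and 85.1 against 94.5 and 112 CPM (log2 -0.21 ± 0.099, edgeR adjusted p = 0.277). Igfbp4, a binding protein of insulin-like growth factors, had 62.4 and 70.0 against 46.6 and 45.6 CPM (edgeR adjusted p = 0.0979). The list of that growth factor axis had 7 of 13 genes above (53.8%) and 2 below (15.4%) in narrowed members, with a median of 0.08. In all members 3 of 14 lay above (21.4%, against 29.2% of all genes) and 4 below (28.6%).

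Genes of alveolar fibroblast identity leaned lower under BPTES, by more in all members. Of 14 such genes outside the rule, 11 lay below in all members (78.6%, against 30.5% of all genes) and 2 above (14.3%, against 29.2%). Their median was -0.21. In the narrowed members 7 lay below (50%, against 27.4%) and 0 above (against 26.2%), with a median of -0.11. Members outside the narrowed gate, more frequent under BPTES, averaged 943 CPM of Itga8 and 107 CPM of Fgf10, against 2231 and 291 CPM inside it. The part of those cells in the lean over all members was not tested. Itga8, the nephronectin receptor subunit, had 2132 and 2011 against 2413 and 2361 CPM, and the collagen XIII gene Col13a1 418 and 453 against 513 and 480 CPM. Pdgfra, which the narrowed gate used, had 1132 and 1160.0 against 1257 and 1235 CPM in all members. Fgf10, a growth factor for the epithelium, had 313, 230, 287 and 332 CPM, with overlap. The chemokine gene Cxcl12 had 45.7 and 48.7 against 35.7 and 34.7 CPM. Of 38 alveolar niche growth factor genes 9 lay below (23.7%) and 6 above (15.8%), neither share above that of all genes. Angpt1, an angiopoietin that acts on endothelium, had 1108 and 1013 against 1447 and 1375 CPM, and Vegfa 171 and 198 against 237 and 243 CPM. On the upper side, the Wnt inhibitor gene Sfrp1 had 64.2 and 61.5 against 50.1 and 46.3 CPM, and Fstl1 268 and 264 against 198 and 230 CPM. None of these was called.

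Within the members, gene levels changed along the balance itself. Each library's narrowed members were divided into 4 bins of near equal size by the Tnc group's percentage, which is a description, since the same UMIs set the order. From the first to the last bin, the mean over 4 libraries went from 5.52 to 146 CPM for Timp1, from 7.79 to 182 CPM for Igfbp4, from 9.35 to 112 CPM for Cxcl12 and from 64.2 to 441 CPM for C4b. The last bin also held most of Saa3, with 139 and 485 CPM under BPTES and 37.1 and 72.9 CPM under DMSO. The interleukin gene Il6 went from 96.4 to 335 CPM and the neutrophil chemokine gene Cxcl1 from 24.8 to 201 CPM. Genes of type 2 cells were also higher in the last bin: Lcn2 went from 3.33 to 91.9 CPM and Il33 from 0.94 to 10.04 CPM. The part of such RNA in the climb was not tested. Il33 was not limited to epithelium, at 305 CPM in cells with a UMI of Epcam and 153 CPM in cells with a UMI of Pi16. Igfbp4, Timp1 and Cxcl12 averaged 56.0, 46.8 and 41.1 CPM in narrowed members. They averaged 1350, 126 and 266 CPM in cells with a UMI of Pi16. In the Gabra3, Itgbl1 and Mmp3 fibroblasts they averaged 472, 104 and 235 CPM. The part of such fibroblasts in the climb was not tested either. Itga8 went from 2711 to 1453 CPM, Pdgfra from 1577 to 1032 CPM and Pparg from 92.9 to 49.0 CPM. Pparg was lower in both BPTES libraries than in both DMSO libraries within each bin, from 68.4 and 59.2 against 115 and 129 CPM in the first to 25.6 and 31.9 against 76.9 and 61.7 CPM in the last. Lpl was higher in both BPTES libraries within each bin, from 10.6 and 13.2 against 3.85 and 5.95 CPM to 145 and 147 against 68.5 and 81.5 CPM. Bins of the same number did not cover the same balance: the second ran from 66.4% to 76.6% and 66.2% to 75.9% under BPTES and from 61.8% to 70.4% and 63.4% to 72.7% under DMSO. The part of this shift in the treatment differences within bins was not tested. Timp1 overlapped between treatments in the first bin, at 7.36, 5.69, 3.21 and 5.84 CPM, and Igfbp4 in the second, at 21.9, 8.05, 18.8 and 10.1 CPM. The last bin had the lowest median depth in each library, 16228 to 18256 UMIs against 18556 to 19947 in the first.

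**Figure D5:**
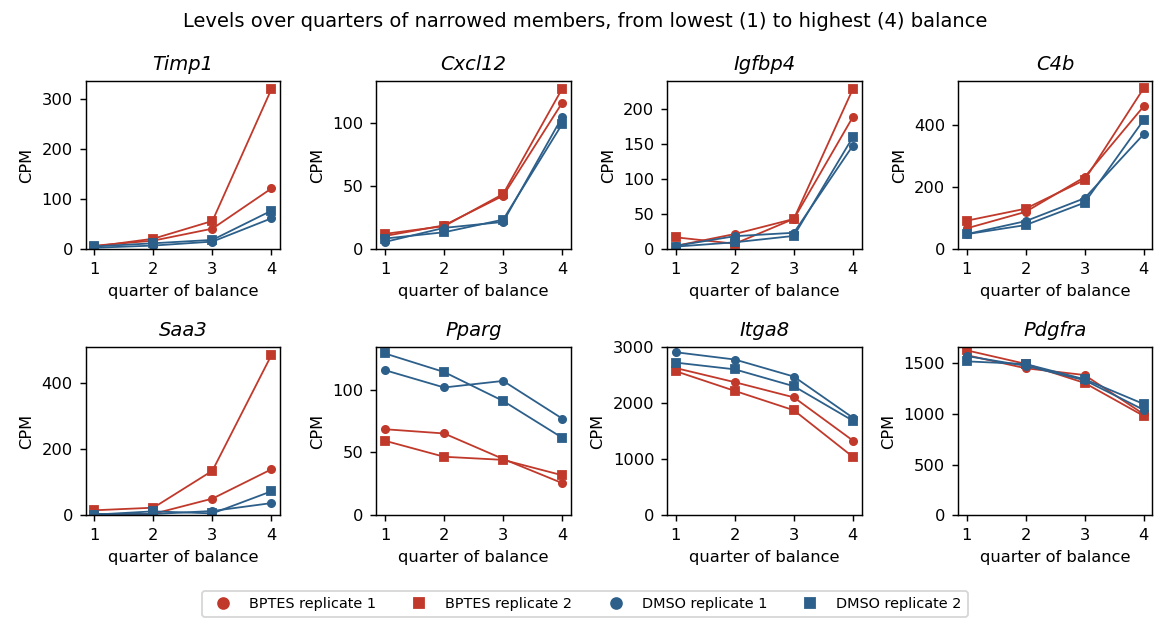
Level (y axis, CPM) of 8 genes in 4 bins of the narrowed members (x axis), ordered within each library from the lowest to the highest percentage of the Tnc group, 1 line per library. Timp1, Cxcl12, Igfbp4, C4b and Saa3 climb toward the fourth bin and Pparg, Itga8 and Pdgfra decline, and the BPTES lines of Pparg lie below the DMSO lines throughout, at 25.6 and 31.9 against 76.9 and 61.7 CPM in the fourth.

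The members were also set against the Slc7a10 side of the split, as a description, since the split chose both sides. In the narrowed gate, the mean of the 4 within-library log2 ratios was 3.42 for Lpl, 3.22 for the growth factor gene Pdgfd, 3.21 for Timp1, 3.08 for Igfbp4, 2.96 for the adhesion gene Flrt2, 2.89 for Ldlrad4, 2.88 for the globin gene Cygb, 2.61 for Col14a1 and 2.52 for Cxcl12. It was 2.49 for Cpne8, 2.49 for Cxcl1, 2.44 for the sodium channel gene Nalcn, 2.42 for C4b, 2.30 for B3galt1 and 2.27 for Srgap1, and each of these 15 was above 0 in every library. Timp1 ranged from 21.8 to 92.7 CPM in members and from 1.36 to 6.58 CPM on the other side. Lpl and Ldlrad4 had 0 CPM in the lowest library of the other side, so their ratio there depended on the pseudocount of 1 CPM. Their ratios ran from 2.20 to 5.80 and from 0.85 to 5.44. Without the narrowed gate the means were 2.07 and 1.35. The higher levels of Lpl, Timp1, Igfbp4 and Cxcl12 in other fibroblasts are given above. The genes lower in members differed by less: the ratio was -0.93 for Esyt3, -0.89 for the calcium channel gene Ryr3, -0.87 for Hopx, -0.86 for Colq, -0.85 for the adhesion gene Cntn1 and -0.80 for the lipase gene Mgll. Colq ranged from 73.5 to 144 CPM in members and from 139 to 272 CPM on the other side. Without the narrowed gate, Rtkn2 (-4.71), Col4a4 (-2.36) and Ager (-1.89) led that direction, followed by Hopx (-1.85); Rtkn2, Ager and Hopx are type 1 cell markers. With it the ratio was 0.05 for Rtkn2 and 0.14 for Col4a4, while that of Hopx stayed below 0.

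The treatment difference itself was compared between the 2 sides in 1 model of 8 sums, with a term per library. By the rule alone, 0 of 16059 genes were called as different (0%; 909 at an unadjusted p under 0.05, 5.66%; DESeq2 called 23). In the narrowed gate, 7 of 14810 genes were called (0.0473%; 6.29% at an unadjusted p under 0.05), and with each library left out in turn they were called each time, except Lum without BPTES replicate 2. Those fits called 60 to 128 genes in all. Thbs1, the matricellular thrombospondin, had 1446 and 1509 against 1560 and 2016 CPM in members and 574 and 588 against 1155 and 1285 CPM on the other side. In the fit of narrowed members alone, with its own scaling, the treatments overlapped for Thbs1 (1448 and 1547 against 1515 and 2027 CPM). Its difference between the sides was 0.84 ± 0.084 on the log2 scale (approximate SE, edgeR adjusted p = 0.00027). Il6 was level in members at 193, 186, 197 and 187 CPM and had 27.0 and 24.0 against 71.7 and 93.7 CPM on the other side (1.71 ± 0.18, edgeR adjusted p = 0.00035). The ubiquitin ligase gene Arih1 was lower under BPTES on both sides, by less in the members, with 1065 and 1065 against 1892 and 1360 CPM and with 564 and 588 against 1438 and 1153 CPM. The other side held 119, 124, 225 and 204 cells. None of the 15 genes called in the narrowed members was called as different between the sides. Pparg had a log2 fold change of -1.08 ± 0.068 in members by the rule and -0.88 ± 0.20 on the other side (edgeR adjusted p of the difference = 0.911). In the narrowed gate the difference between the sides was -0.40 for Pparg (edgeR adjusted p = 0.676).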

How the data were processed

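The authors' deposited files were filtered matrices of raw UMI counts, 1 per library, made with Cell Ranger 8.0.1 on mm10, per the submitters' processing notes. Library totals ran from 260346570 to 342107092 UMIs, and 65 to 104 kept barcodes were shared by each pair of libraries. The members and lists were chosen with earlier results of these data known. No doublet caller was run; the gate and a stricter gate stood in for it. Counts were summed per library over members. The quasi-likelihood test of edgeR 4.0.16 (R 4.3.3), tested on simulated data first, compared the sums after filterByExpr and TMM scaling, two-sided, with Benjamini-Hochberg adjustment over all genes tested and a threshold of 0.05; DESeq2 1.42.0 was an alternative. Standard errors were taken as the log2 fold change over the square root of F. Named genes were up to 10 called per direction, without overlap, at a mean of at least 10 CPM, filled to 6 by smallest p, the remaining called genes of the narrowed gate, and 15 fixed genes; further list genes were picked as examples after their values were seen. Between the sides, 15 per direction at 20 CPM or more were ranked with a pseudocount of 1 CPM. Shares were compared by exact permutation. Coordinates are from GENCODE vM21 (mm10). The result of 1 fixed gene is not reported here.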

Additional observations from a re-analysis of the deposited data

Results flagged for a closer look

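The treatment difference on the 2 sides of the split differed, by the test of that difference in the narrowed gate, for 7 genes. On the log2 scale, the difference in members minus that on the Slc7a10 side was 0.84 for Thbs1, 1.71 for Il6, 0.61 for Arih1, 0.76 for Ptpn12, 2.09 for Hp, 0.77 for Ier3 and -5.53 for Lum. By the rule alone, edgeR's adjusted p for these 7 was between 0.20 and 0.932. The values by the rule were 1.04 for Thbs1, 1.75 for Il6, 0.62 for Arih1, 0.71 for Ptpn12 and -4.83 for Lum, close to those above, but 0.33 for Hp and 0.21 for Ier3. Ptpn12, a phosphatase gene, had 142, 157, 160 and 177 CPM in members and 125 and 122 against 231 and 227 CPM on the other side. Hp had 82.3, 181, 44.2 and 38.9 CPM in members and 16.2, 16.2, 28.9 and 13.2 CPM on the other side. Ier3, an immediate early gene, had 130, 126, 186 and 135 CPM in members and 95.4, 83.5, 228 and 148 CPM on the other side. Lum, the gene of the matrix proteoglycan lumican, had 1.23, 12.8, 8.93 and 2.90 CPM in members and 1.2, 33.9, 0 and 0.627 CPM on the other side, from 69 UMIs there, and without BPTES replicate 2 its adjusted p was 0.386.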

How the results depend on the processing

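Counts of called genes moved with the processing. Over all members (0 called), 68 were called with plain library sizes, 1417 with DESeq2, 31 with the stricter doublet gate, 50 with at least 4 alveolar genes, 15 with the narrowed gate and 1 to 1487 with a library left out, most without DMSO replicate 2. In the narrowed members (15), no filter on low counts gave 0, DESeq2 531, and leaving out a library 0 to 159, with 0 of the 15 without DMSO replicate 1. In all alveolar fibroblasts (0), plain library sizes gave 32, DESeq2 1959, a mitochondrial limit of 5% 19, the stricter doublet gate 24, at least 4 alveolar genes 33, the narrowed gate 25, and leaving out a library 0 to 1715. For the difference between the sides (0), no filter gave 336, DESeq2 23, the stricter doublet gate 31, at least 4 alveolar genes 4, a margin of 3 UMIs 17, the narrowed gate 7, and leaving out a library 6 to 38. In the narrowed cells (7), leaving out a library gave 60 to 128. Of the 12 genes of the split (0), plain library sizes, the mitochondrial limit and at least 4 alveolar genes each called 1, DESeq2 8, and leaving out a library 0 to 4. The share of alveolar fibroblasts (1.76 points) differed by 2.62 with the stricter doublet gate, 3.65 with at least 4 alveolar genes, -0.783 with a margin of 3 UMIs, 4.63 when thinned, 3.92 in the narrowed gate, and 1.19 to 2.33 with a library left out. The share of cells without Ptprc (0.61 points) differed by -0.31 with at least 4 alveolar genes, -0.953 in the narrowed gate and -0.662 to 1.88 with a library left out. The cause of each was not tested. The genes called with a library left out come from fits whose lone library was assumed to vary like the others.

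A replicate block, with the replicate number as a term, called 1154 genes over all members, 873 in all alveolar fibroblasts, 5 of the 12 genes of the split and 12 in the narrowed members, 7 of them among the 15. The numbers name libraries and no label pairs them; the deviations of same-numbered libraries correlated at 0.127 over 16750 genes. With 2 libraries a group, no share can pass the test. The narrowed gate and its fits were chosen after seeing the data.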
